A study of Mus musculus with 22 samples.

Results

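GATA factors are zinc finger transcription factors named after the short DNA word they bind, and 4 of them, Gata2, Gata3, Gata4 and Gata6, were followed here across mouse embryonic stem cells (ESCs), primitive endoderm (PrE) stem cells and ESCs without the Polycomb enzyme Ezh2. They were chosen by gene symbol, as 4 of the 55367 symbols in the deposited RNA-seq table, and all 4 passed the filter on low counts. The study asked how EZH2, the methyltransferase of the Polycomb complex PRC2, guards pluripotency against the PrE fate. Its 22 mouse libraries fell into 10 groups, all E14 cells except where C57 is named. The wild-type ESC groups in LIF medium were TG2A_ESC (n = 2, titled TG2A.NG.PB), E14_ESC (n = 3) and C57_ESC (n = 2), and TG2A_S2iL (n = 2, also TG2A.NG.PB) was wild-type in LIF medium with the 2i inhibitors. KO10_SL (n = 3) and KO10_S2iL (n = 2) were knockout clone 10 in those 2 media, without and with 2i. KO10_SL_rescued (n = 2) was the same clone with Ezh2 restored, in LIF medium. The PrE stem cell groups were EPZ_iPrE1 and EPZ_iPrE2 (n = 2 each), labelled wild-type, in PrE stem cell culture, and by the design text 2 lines that had been induced from ESCs with the EZH2 inhibitor EPZ-6438. The last group, C57_PrESC (n = 2), was wild-type in the same culture with no such induction stated. The genotype labels spell the deleted gene "Eeh2", read here as Ezh2. All knockout results come from 1 clone, the labels do not say that replicates were separate cultures, and p-values then measure only the spread between these libraries.

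In the blastocyst, inner cell mass cells that keep NANOG become epiblast, while cells that respond to FGF4 through its receptors switch on GATA6, then SOX17 and GATA4, and become PrE, the layer that lines the cavity and later forms yolk sac endoderm. Forced GATA6 or GATA4 is enough to turn cultured ESCs into PrE-like cells. GATA3 acts in the trophoblast, beside CDX2 and TFAP2C, and GATA2 acts in trophoblast and above all in blood stem cells and endothelium. The genes of these factors are known PRC2 targets in ESCs, with CG-rich start regions that carry H3K27me3.

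The start regions of Gata2 and Gata3 are shown because PRC2 targets often have CG-rich starts, and because these 2 members matched a window in the RefSeq table. CG content alone does not mark a gene as a target, and no H3K27me3 data were used here. Each window runs from 250 bases before to 50 bases after a RefSeq start (GRCm38.p6) and is written 5′ to 3′ on the strand of the gene, with every CG in capitals.
Gata2 start region, chr6:88193641-88193940, plus strand: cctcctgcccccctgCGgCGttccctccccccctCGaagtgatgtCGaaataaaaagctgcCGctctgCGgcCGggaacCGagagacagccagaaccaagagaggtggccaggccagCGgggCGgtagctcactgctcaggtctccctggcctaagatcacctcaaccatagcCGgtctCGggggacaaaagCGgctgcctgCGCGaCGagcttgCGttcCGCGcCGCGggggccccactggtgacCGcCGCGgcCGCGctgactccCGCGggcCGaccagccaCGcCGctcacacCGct
Gata3 start region, chr2:9878551-9878850, minus strand: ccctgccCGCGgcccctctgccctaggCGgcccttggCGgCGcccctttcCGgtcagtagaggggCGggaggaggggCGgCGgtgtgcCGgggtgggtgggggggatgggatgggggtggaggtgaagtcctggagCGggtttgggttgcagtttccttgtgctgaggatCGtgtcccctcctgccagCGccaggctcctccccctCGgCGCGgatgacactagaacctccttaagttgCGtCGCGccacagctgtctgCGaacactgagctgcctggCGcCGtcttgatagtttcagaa
The first window holds 32 CG and 69.3% G or C, and the Gata3 window holds 22 CG and 67.3%. Among 32841 RefSeq windows of the same length the median was 7 CG and 52.7% G or C, and 9.52% of windows had as many CG as the first and 23.1% as many as the Gata3 window. A further Gata2 start, at chr6:88198414-88198713, had 29 CG, a number reached by 12.9% of windows. The GATA word itself, read as GATA with A or T before it and A or G after it on both strands, matched in 29.8% of all windows. It did not match in either Gata2 window and matched 1 time in the Gata3 window, from base 287. A match here is a description of letters, not of binding.

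Library totals ran from 13.6 M to 26.3 M estimated counts, and 17549 to 21819 symbols were above 0 per library. Ezh2 was at 0.0409 to 0.0813 CPM (CPM is the usual unit of counts scaled to a common library size) in KO10_SL and 0 and 0.302 CPM in KO10_S2iL, against 173 to 239 CPM in the wild-type ESC groups and 495 and 533 CPM after rescue. The labelled cell types carried their markers: Nanog was at 271 to 488 CPM in all ESC groups and 0.137 to 1.42 CPM in the PrE groups, and Pdgfra at 368 to 821 CPM in the PrE groups and at most 31.5 CPM elsewhere. The C57_ESC libraries stood apart from each other. Their 14 PrE partner genes summed to 2005 CPM in replicate 1 and 1103 in replicate 2, and 12 fibroblast genes to 89.7 and 359 CPM. In C57_PrESC the fibroblast sum was 45.8 and 1950 CPM, and a sum of 8 macrophage genes 37.2 and 140 CPM, with no macrophage gene at 0 in replicate 2. The fibroblast sum was also raised in the induced PrE lines, at 389 to 434 CPM in EPZ_iPrE1 and 374 to 523 in EPZ_iPrE2. It was 48.03 to 65.25 CPM in TG2A_ESC. The part of these genes in the member results was not tested. The fitted changes of the members in the C57 pair are given with and without single libraries, while the counts over gene lists were made with all of them.

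Gata4 and Gata6, the 2 PrE determinants, were the members that spanned the widest range. Gata4 (chromosome 14, 63198922 to 63271692, minus strand, GENCODE M21 on GRCm38) had mean levels of 373 ± 98.9 CPM in C57_PrESC (SD, n = 2), 312 ± 61.4 in EPZ_iPrE2 and 238 ± 38.2 in EPZ_iPrE1. It stood at 35.0 ± 3.05 CPM in KO10_SL (n = 3), 10.7 ± 13.1 in C57_ESC, 8.93 ± 0.677 in KO10_S2iL and 3.999 ± 1.61 in TG2A_ESC. The lowest groups were TG2A_S2iL (1.45 ± 0.0134), KO10_SL_rescued (1.34 ± 0.00566; n = 2) and E14_ESC (0.702 ± 0.30; n = 3). In this order the libraries of C57_PrESC and EPZ_iPrE2 overlapped, as did those of C57_ESC with both KO10_S2iL and TG2A_ESC, and the other neighbours did not. With 2 or 3 libraries per group, separation is frequent even without a true difference. Its share over all genes was not counted, here or below.

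Gata6 (chromosome 18, 11052064 to 11085635, plus strand) gave nearly the same order. Its mean was 311 CPM in EPZ_iPrE1 (libraries at 321 and 301), 306 ± 0.919 in C57_PrESC and 283 ± 17.4 in EPZ_iPrE2, and the first 2 overlapped. It was 37.6 ± 4.28 CPM in KO10_SL and 16.4 ± 2.66 in KO10_S2iL. TG2A_ESC (7.80 ± 6.39) and C57_ESC (6.12 ± 7.23) followed, each with replicates far apart. KO10_SL_rescued (1.88 ± 0.239), TG2A_S2iL (1.54 ± 0.281) and E14_ESC (1.08 ± 0.42) were lowest, and these neighbours overlapped. Per kilobase of exon, where the genes can be compared, the ratio of Gata4 to Gata6 lay between 0.583 and 1.29 in the 6 PrE libraries and between 0.807 and 0.864 in KO10_SL.

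Gata2 and Gata3 had much lower highest group means and followed other orders. Gata2 (chromosome 6, 88193891 to 88207032, plus strand) was highest in KO10_S2iL, at 18.6 ± 1.26 CPM, and in EPZ_iPrE1, at 15.4 ± 4.43, and these groups overlapped. C57_PrESC (10.4 ± 0.368), TG2A_S2iL (8.86 ± 1.05) and EPZ_iPrE2 (4.50 ± 0.0537) came next, without overlap among them. The remaining groups lay between 1.12 ± 0.0113 CPM in KO10_SL_rescued and 3.28 ± 1.79 in C57_ESC. Gata3 (chromosome 2, 9857078 to 9890034, minus strand) was the only member whose mean was lower in all 3 PrE groups than in the wild-type ESC group compared with it. It was highest in KO10_S2iL (5.40 ± 0.329 CPM), KO10_SL (3.65 ± 1.07) and TG2A_S2iL (3.11 ± 0.233), and lowest in EPZ_iPrE2 at 0.0672 ± 0.00204 CPM, which is 1 count in each library.

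**Figure D1:**
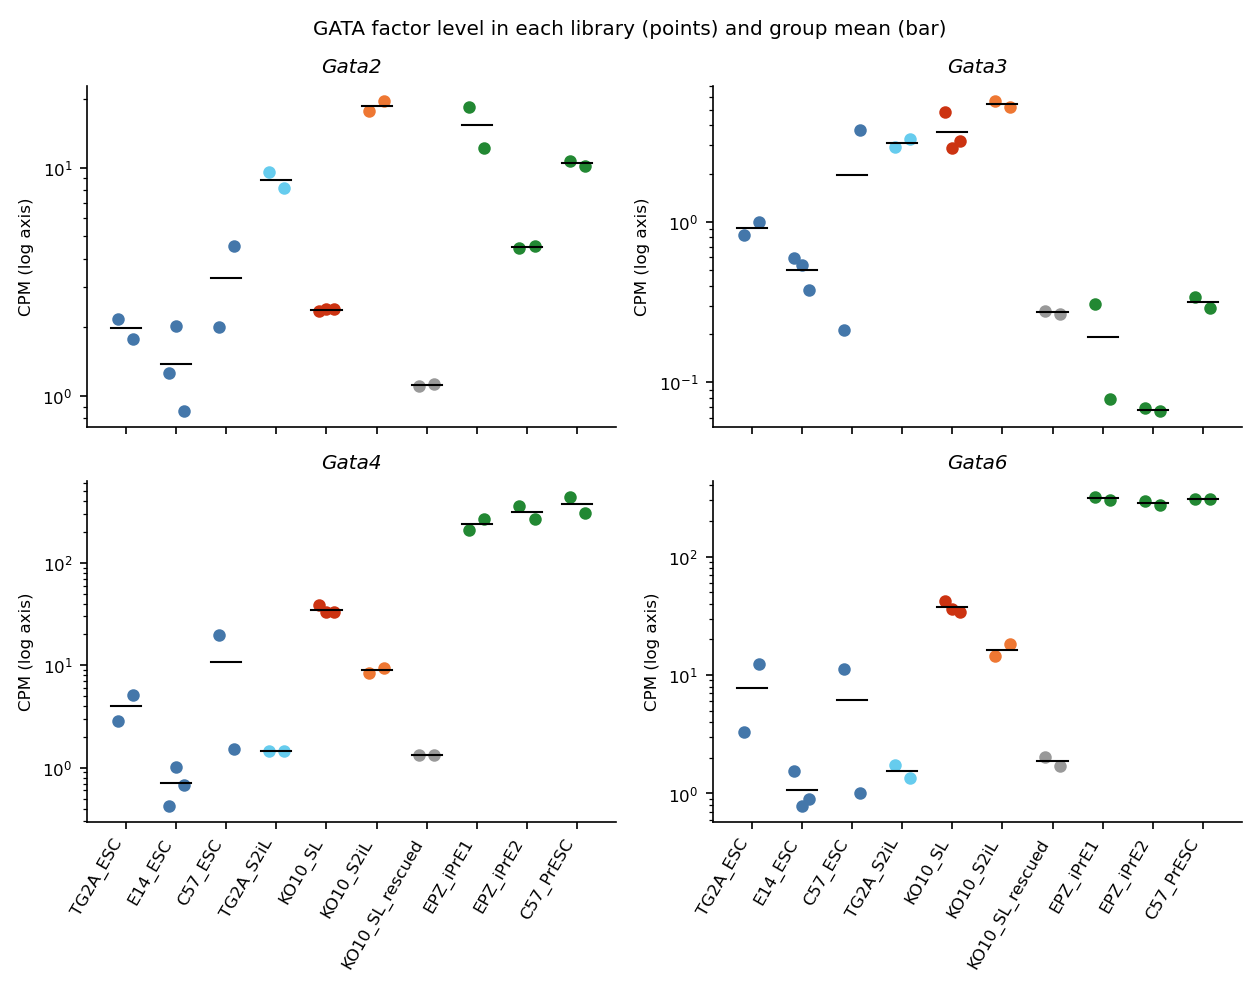
Level of each GATA factor in CPM (log axis) in every library (points), with the mean of each group as a bar, in 10 groups. Gata4 and Gata6 are above 200 CPM in the PrE stem cell libraries and between 33.2 and 42.4 CPM in KO10_SL, Gata2 is highest in KO10_S2iL and EPZ_iPrE1, and Gata3 is lowest in EPZ_iPrE2.

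The comparison of PrE stem cells with ESCs asked which GATA factors separate the 2 cell types. Gata4, Gata6 and Gata2 rose in all 3 PrE groups, and Gata3 fell in EPZ_iPrE2 and C57_PrESC. In a fit over all 17547 tested genes (edgeR's quasi-likelihood test with Benjamini-Hochberg adjustment, called at an adjusted p under 0.05) 3 members were called in EPZ_iPrE1 against TG2A_ESC, where 60.1% of all genes were called. All 4 were called in EPZ_iPrE2 against TG2A_ESC, with a background of 62.2%, and all 4 in C57_PrESC against C57_ESC, with 60.7%. Calls were thus common in these comparisons. The median signed change over all genes was -0.08, -0.11 and -0.09 on the log2 scale, with genes going both ways. In RNA from whole cultures, more cells of a type and more RNA per cell cannot be told apart.

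Gata6 read 321 and 301 CPM in EPZ_iPrE1, 295 and 270 in EPZ_iPrE2, and 3.28 and 12.3 in TG2A_ESC. The PrE libraries were all far above the ESC libraries, and TG2A_ESC replicate 2 was the higher of its pair. The log2 change was 5.32 (SE 0.623, adjusted p = 1.46e-06) in EPZ_iPrE1 and 5.18 (SE 0.62, adjusted p = 1.77e-06) in EPZ_iPrE2. Without TG2A_ESC replicate 2 the values were 6.59 and 6.44. Gata4 read 211 and 265 CPM in EPZ_iPrE1 and 356 and 269 in EPZ_iPrE2, against 2.86 and 5.14 in TG2A_ESC. It rose by 5.89 (SE 0.669, adjusted p = 1.02e-06) and 6.28 (SE 0.678, adjusted p = 5.34e-07), again without overlap. The symbol Gata6os, by its name an opposite-strand transcript of Gata6, held 3.29 to 7.55% as many counts as Gata6 in the 6 PrE libraries. In the annotation used here the gene overlapping Gata6 on the opposite strand is named 1010001N08Rik, a symbol not in the deposited table. The position of the counted Gata6os was thus not shown. The strand setting of the counting is not given in the sources used here, so reads of Gata6 and Gata6os may not have been fully separated.

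The C57 pair gave the same directions from a less even baseline. Both C57_PrESC libraries held Gata6 at 305 to 306 CPM, against 11.2 and 1.01 CPM for the ESC libraries, and it rose by 5.65 (SE 0.637, adjusted p = 1e-06). Gata4 read 443 and 303 CPM against 19.97 and 1.51, and rose by 5.12 (SE 0.625, adjusted p = 2.46e-06). C57_ESC replicate 1, the library with the higher PrE partner sum, was the high one for both genes. Without it the changes were 8.26 for Gata6 and 7.96 for Gata4, and without replicate 2 they were 4.78 and 4.23. Without C57_PrESC replicate 2 they were 5.64 and 5.36. Gata6 was as high in the C57_PrESC library with 1950 CPM of fibroblast genes as in the other, and Gata4 was the lower of the pair there. Whether both C57 groups come from 1 line is not given in the labels.

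Gata2, the blood and endothelial factor, rose less and less evenly. Its libraries read 18.5 and 12.3 CPM in EPZ_iPrE1, 4.46 and 4.54 in EPZ_iPrE2 and 2.19 and 1.78 in TG2A_ESC. None of these groups overlapped. The change was 2.95 (SE 0.37, adjusted p = 3.2e-06) in EPZ_iPrE1 and 1.18 (SE 0.366, adjusted p = 0.0102) in EPZ_iPrE2, and the latter call ended without TG2A_ESC replicate 2 (1.05, adjusted p = 0.0672). In the C57 pair Gata2 read 10.7 and 10.2 CPM against 2.01 and 4.54, a rise of 1.67 (SE 0.351, adjusted p = 0.000612) that missed the threshold when only these 4 libraries were fitted (1.68, adjusted p = 0.0701). It was 1.23 without C57_ESC replicate 1, 2.38 without replicate 2, and 1.70 without C57_PrESC replicate 2, called in each. Of the 8 tested blood and endothelial genes, 2 rose and 4 fell in EPZ_iPrE1, with a median of -1.26. Of all genes, 60.1% were called there. Runx1, the blood stem cell factor, rose by 6.88 (adjusted p = 1.24e-12). Pecam1, an endothelial adhesion molecule that ESCs also express, fell by 8.22 (adjusted p = 4.97e-11). The embryonic globin Hbb-bh1 had 0 counts in every library of the series.

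Gata3, the trophoblast factor, was near the detection limit in PrE stem cells. It had 4 and 1 counts in EPZ_iPrE1, 1 and 1 in EPZ_iPrE2 and 16 and 19 in TG2A_ESC. Scaled by library size, it was 13.6-fold lower in EPZ_iPrE2, with a 95% exact counting interval of 3.49 to 117, and 4.72-fold lower in EPZ_iPrE1, with an interval of 1.84 to 15.4. These intervals cover counting error only. The fitted changes were -3.64 (SE 1.11, adjusted p = 0.00932) and -2.20 (SE 0.958, adjusted p = 0.0569). The second was not called, but passed with no filter on low counts (adjusted p = 0.00979), with only the compared groups (adjusted p = 0.0444) and in DESeq2 (adjusted p = 0.0476). The first call ended without either EPZ_iPrE2 library (adjusted p = 0.0537 and 0.0586), where a lone library stands for its group and is assumed to vary as the others do. In the C57 pair the fall of 2.63 on the log2 scale (SE 0.823, adjusted p = 0.0109) depended on C57_ESC replicate 2. That library held 74 counts, against 4 in replicate 1 and 5 and 5 in C57_PrESC, and without it the value turned to 0.56 (adjusted p = 0.583). It ended without C57_PrESC replicate 2 as well (-2.53, adjusted p = 0.058).

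The trophoblast genes that accompany Gata3 did not share 1 direction in these comparisons. Of 12 tested, 5 rose and 1 fell in EPZ_iPrE1, 5 rose and 3 fell in EPZ_iPrE2, and 3 rose and 6 fell in C57_PrESC, with medians of 0.00, 0.71 and -1.66. Of all genes, 60.1%, 62.2% and 60.7% were called there, also in both directions. Neither the calls nor the mixed directions thus set this list apart. The simple-epithelium keratins Krt8 and Krt18, which PrE cells also express, were among the rises in EPZ_iPrE1, at 3.22 (adjusted p = 2.29e-06) and 3.83 (adjusted p = 4.33e-06). Cdx2, a master factor of trophectoderm, rose there by 3.68 (adjusted p = 0.00108) from 0.781 and 0.157 CPM to 3.00 and 9.21. It rose by 2.19 in EPZ_iPrE2 (adjusted p = 0.0301) and was not called in C57_PrESC (-0.38, adjusted p = 0.779). Tfap2c, the partner of Cdx2, was not called in EPZ_iPrE1 (-0.56, adjusted p = 0.183). It fell in the others, at -5.16 (adjusted p = 2.09e-07) in EPZ_iPrE2 and -7.88 (adjusted p = 2.67e-09) in C57_PrESC.

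Between the induced lines, Gata2 was the member that differed. EPZ_iPrE2 less EPZ_iPrE1 was -1.77 on the log2 scale (SE 0.351, adjusted p = 0.00669), and it was the 1 member called where 3.91% of genes were called. Both EPZ_iPrE1 libraries were above both EPZ_iPrE2 libraries. The call ended without EPZ_iPrE1 replicate 1 (-1.44, adjusted p = 0.0758), without either EPZ_iPrE2 library, and with only these 4 libraries fitted (-1.79, adjusted p = 0.084). Gata4 (0.39, SE 0.514), Gata6 (-0.14, SE 0.502) and Gata3 (-1.44, SE 1.43) were not called. The change of the induced lines less the change of the C57 pair was called for 0 of the 4 members (0 also at an unadjusted p under 0.05), against 35.1% of all genes. Its values were 0.97 (SE 0.779) for Gata4, -0.40 (SE 0.747) for Gata6, 0.40 (SE 0.468) for Gata2 and -0.29 (SE 1.06) for Gata3. These depended on the C57_ESC library used: without replicate 1 Gata4 read -1.85 (adjusted p = 0.00455) and Gata6 -2.99 (adjusted p = 0.0027), and without replicate 2 Gata4 read 1.85 (adjusted p = 0.000652) and Gata3 -3.49 (adjusted p = 0.00414). Gata4 also passed with no filter on low counts (0.98, adjusted p = 7.36e-05), where the change was nearly the same and only the adjusted p moved far.

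The knockout comparison asked what loss of Ezh2 does to these genes in ESCs kept in LIF medium. All 4 members rose in KO10_SL against E14_ESC, where 48.6% of genes were called and the median gene moved by 0.07. Gata4 read 38.5, 33.2 and 33.2 CPM in KO10_SL and 0.419, 1.02 and 0.672 in E14_ESC. Gata6 read 42.4, 36.2 and 34.2 CPM against 1.56, 0.777 and 0.896. Gata3 read 4.88, 2.90 and 3.18 CPM against 0.599, 0.538 and 0.373. For these 3 genes every knockout library was above every wild-type library by a wide gap, and the log2 changes were 5.63 (SE 0.645, adjusted p = 2.93e-06), 5.15 (SE 0.595, adjusted p = 3.26e-06) and 2.87 (SE 0.617, adjusted p = 0.00109). Gata2 read 2.36, 2.41 and 2.42 CPM against 1.26, 2.03 and 0.858, closer but without overlap. Groups this small often separate by chance, and the share over all genes was not counted. The Gata2 rise of 0.82 (SE 0.309, adjusted p = 0.0378) missed the threshold in 5 of the 6 fits that leave out 1 of these libraries, down to 0.54 (adjusted p = 0.183) without E14_ESC replicate 3. Gata3 thus rose in this comparison, while it fell in EPZ_iPrE2 against TG2A_ESC.

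Against the other wild-type set, TG2A_ESC, the same clone gave smaller differences. Here 3 members were called, with a background of 27.7%. Gata4 was higher in KO10_SL by 3.13 (SE 0.598, adjusted p = 0.0011), Gata6 by 2.27 (SE 0.542, adjusted p = 0.00507) and Gata3 by 1.99 (SE 0.671, adjusted p = 0.0357), and Gata2 was not called (0.27, SE 0.337). The 2 wild-type sets themselves differed in both PrE determinants. E14_ESC was lower than TG2A_ESC, at -2.88 for Gata6 (SE 0.673, adjusted p = 0.00531). For Gata4 it stood at -2.51 (SE 0.796, adjusted p = 0.0306), and these were the 2 called members, where 24.3% of genes were called. These rested on TG2A_ESC replicate 2, the library with 12.3 CPM of Gata6: without it the values were -1.62 (adjusted p = 0.244) and -2.02 (adjusted p = 0.26). The Gata4 call also ended without any 1 of the E14_ESC libraries (-2.29, -2.79 and -2.47). Conversely, without TG2A_ESC replicate 1 the knockout difference of Gata6 was 1.64 (adjusted p = 0.0688). The Gata3 call against TG2A_ESC ended in each of the 5 fits that leave out 1 library, with 1.69 to 2.14. Gata4 kept its call in all 5.

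Rescue was compared with the knockout to ask whether the levels return when Ezh2 is put back. All 4 members fell in KO10_SL_rescued against KO10_SL, where 45% of genes were called. Gata4 read 1.33 and 1.34 CPM after rescue and Gata6 2.05 and 1.71. Gata3 read 0.277 and 0.268 CPM and Gata2 1.11 and 1.13. No rescued library reached a knockout library for any of the 4 genes, though groups this small often separate by chance. The log2 changes were -4.71 (Gata4, SE 0.702, adjusted p = 5.24e-05), -4.32 (Gata6, SE 0.655, adjusted p = 6.06e-05), -3.71 (Gata3, SE 0.786, adjusted p = 0.00111) and -1.10 (Gata2, SE 0.361, adjusted p = 0.0208). The Gata2 call ended without either rescued library (-1.06 and -1.13, adjusted p = 0.116 and 0.0933). Against E14_ESC 0 members were called in edgeR or in DESeq2 (0 at an unadjusted p under 0.05 in edgeR), where 0.108% of genes were called. The differences left there were 0.93 for Gata4 (SE 0.973), 0.83 for Gata6 (SE 0.832), -0.84 for Gata3 (SE 0.832) and -0.28 for Gata2 (SE 0.373). Both Gata4 and Gata6 were above all 3 E14_ESC libraries after rescue, and both Gata3 values below them.

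The genes that work with GATA6 in PrE were counted in the same comparisons. All 14 PrE partners and targets rose in each of the 3 PrE stem cell comparisons, with medians of 5.60, 5.83 and 5.40. In KO10_SL against E14_ESC 12 rose and 1 fell, with a median of 4.21. Sox17, the HMG factor that follows GATA6, rose by 6.71 (SE 0.639, adjusted p = 4.6e-07), Cubn, an endocytic receptor, by 4.93 (adjusted p = 0.00098), and the endoderm pioneer factor Foxa2 by 4.87 (adjusted p = 4.76e-05). Hnf4a, which acts later in visceral endoderm, was the fall, at -1.29 (adjusted p = 0.0253). Against TG2A_ESC 12 of the 14 rose and 0 fell, with a median of 2.66, and Hnf4a stood at 1.39 (adjusted p = 0.098), E14_ESC being above TG2A_ESC in this gene by 2.68 (adjusted p = 0.00381). After rescue 12 of the 14 fell and 0 rose, with a median of -3.89, led by Foxa2 at -5.72 (adjusted p = 0.000185) and Sox17 at -5.37 (adjusted p = 8.54e-06). The list was chosen with earlier results of these data known, so its direction is no independent evidence. Pluripotency factors did not move that way. Of 10, 2 rose and 1 fell in KO10_SL against E14_ESC (median 0.19), while 8 fell in each induced PrE line (medians -5.04 and -4.81). Beside these counts, 48.6% of all genes were called in KO10_SL against E14_ESC, 27.7% against TG2A_ESC and 45% after rescue. In the 3 PrE comparisons the shares were 60.1%, 62.2% and 60.7%.

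Genes of FGF input and of the feedback that follows FGF signalling are listed for the same comparisons. Of 9, 1 rose and 7 fell in EPZ_iPrE1, 1 rose and 8 fell in EPZ_iPrE2, and 1 rose and 7 fell in C57_PrESC. Of all genes, 60.1%, 62.2% and 60.7% were called there. Among the 9, Spry2, Spry4, Dusp6, Etv4 and Etv5 are feedback or response genes rather than inputs to GATA6. Fgfr2, the receptor characteristic of PrE, was the rise in each, at 5.13 (adjusted p = 3.29e-07), 5.33 (adjusted p = 2.15e-07) and 1.83 (adjusted p = 0.00189). Fgf4, the ligand that ESCs secrete, had 0 counts in all 4 induced PrE libraries and 0 and 1 counts in C57_PrESC, against 6852 counts over the 2 TG2A_ESC libraries and 9979 over C57_ESC. In the knockout against E14_ESC, 1 of 9 rose and 1 fell, where 48.6% of all genes were called. Fgfr2 rose by 1.67 (adjusted p = 0.00212), while Fgf4 stood at 156 to 159 CPM in KO10_SL and 159 to 184 CPM in E14_ESC.

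The levels reached in the knockout were set against those of the induced PrE lines. KO10_SL was lower than the mean of the 2 induced lines, at -2.96 for Gata4 (SE 0.441, adjusted p = 1.42e-05), -2.98 for Gata6 (SE 0.432, adjusted p = 1.05e-05) and -1.79 for Gata2 (SE 0.279, adjusted p = 2.26e-05). Gata3 went the other way. It was higher in KO10_SL by 4.91 (SE 0.702, adjusted p = 8.93e-06), with 266 counts over 3 libraries against 5 and 2 over the induced lines, a ratio of 18.9 (95% exact counting interval 8.01 to 58.7) to EPZ_iPrE1 and 54.5 (14.9 to 452) to EPZ_iPrE2. All 4 members were called there, with a background of 72.1%. Of the 14 PrE partners all were lower in KO10_SL, with a median of -2.85. The trophoblast list summed to 185 to 250 CPM in KO10_SL, 128 to 159 in E14_ESC and 101 and 113 after rescue. In the induced PrE lines, where Gata3 was lowest, the same sum was higher, at 449 and 571 CPM in EPZ_iPrE1 and 292 and 328 in EPZ_iPrE2. The sum includes Krt8 and Krt18, which PrE cells also express and which rose by 1.79 and 1.65 in KO10_SL against E14_ESC. The part of these genes in the Gata3 results was not tested.

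The medium with 2i, which blocks MEK and GSK3, split the family. In wild-type TG2A.NG.PB cells Gata2 rose in 2i and Gata6 fell, 2 members called where 23.3% of genes were called. Gata2 read 9.60 and 8.12 CPM in TG2A_S2iL against 2.19 and 1.78 in TG2A_ESC, a rise of 2.16 (SE 0.364, adjusted p = 0.000577) that kept its call in all fits without 1 of these libraries. Gata6 read 1.74 and 1.34 CPM against 3.28 and 12.3, a fall of 2.33 on the log2 scale (SE 0.744, adjusted p = 0.0315). That call ended without TG2A_ESC replicate 2 (-1.09, adjusted p = 0.446) and without either TG2A_S2iL library. Gata3 was not called (1.76, SE 0.713, adjusted p = 0.0865), nor was Gata4 (-1.46, SE 0.818, adjusted p = 0.217), though their libraries did not overlap. Both passed with only these groups (adjusted p = 0.0199 and 0.0455). They also passed with no filter (adjusted p = 0.0128 and 5.37e-09), but Gata4 stood there at nearly the same value, -1.45, and only its adjusted p moved far.

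In the knockout, Gata2 rose in 2i and Gata4 fell. Gata2 read 17.7 and 19.5 CPM in KO10_S2iL, above every KO10_SL library, and rose by 2.95 (SE 0.312, adjusted p = 3.83e-06). Gata4 read 8.45 and 9.41 CPM, below every KO10_SL library, and fell by 1.97 on the log2 scale (SE 0.542, adjusted p = 0.00937). Leaving out either KO10_S2iL library cost it the call (-1.91 and -2.06). These were the 2 members called, with a background of 36.9%. Gata6, at 14.5 and 18.3 CPM, was also below every KO10_SL library but not called (-1.20, SE 0.502, adjusted p = 0.0718). It passed with only these groups (adjusted p = 7.48e-06). It also passed with no filter (adjusted p = 7.54e-15), at nearly the same change of -1.18. Gata3 was at 5.64 and 5.17 CPM (0.56, SE 0.584, adjusted p = 0.485). Of the PrE partners 12 of 14 fell and 0 rose in KO10_S2iL against KO10_SL, with a median of -2.39, among them Sox7 at -3.84 (adjusted p = 2.29e-05) and Sox17 at -3.06 (adjusted p = 0.000239). The ERK feedback gene Spry4 fell by 3.69 (adjusted p = 2.32e-05). The blood and endothelial list, whose known regulator is GATA2, summed to 141 and 156 CPM in TG2A_ESC and 393 and 399 in TG2A_S2iL, and to 178 to 200 in KO10_SL and 314 and 335 in KO10_S2iL. In TG2A_S2iL against TG2A_ESC, where 23.3% of all genes were called, 2 of its 8 tested genes rose and 0 fell. These were Kit, the stem cell factor receptor (1.71, adjusted p = 0.00214), and Pecam1 (1.14, adjusted p = 0.00108), both of which ESCs also express. In KO10_S2iL against KO10_SL 2 rose and 2 fell. Kit (1.02, adjusted p = 0.0148) and Pecam1 (0.72, adjusted p = 0.00622) rose, and Runx1 (-1.35, adjusted p = 3.41e-05) and Etv2, an early blood and vessel factor (-1.84, adjusted p = 0.0413), fell. Whether this list has a part in the Gata2 result was not tested.

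With 2i present the knockout still stood above its wild type in 3 members, where 30% of genes were called. Gata6 was higher in KO10_S2iL than in TG2A_S2iL by 3.40 (SE 0.714, adjusted p = 0.00219), Gata4 by 2.62 (SE 0.758, adjusted p = 0.016) and Gata2 by 1.07 (SE 0.336, adjusted p = 0.0244). No libraries overlapped for these genes, though groups this small often separate by chance, and the share over all genes was not counted. The Gata6 call held in all 4 fits without 1 library, the Gata2 call in 0 of them (0.94 to 1.17), and the Gata4 call only without KO10_S2iL replicate 1. Gata3 was also higher in both knockout libraries, at 5.64 and 5.17 against 2.94 and 3.27 CPM, but not called (0.80, SE 0.658, adjusted p = 0.393), and passed with only these groups (adjusted p = 0.00514). Of 14 PrE partners 5 rose and 0 fell (median 1.40), and of 12 trophoblast genes 8 rose and 0 fell (median 1.82). Col4a2, a basement membrane collagen, rose by 4.06 (adjusted p = 5.63e-06), and Hand1, a factor of trophoblast giant cells, by 4.64 (adjusted p = 0.000266). The trophoblast list, Krt8 and Krt18 included, summed to 411 and 414 CPM in KO10_S2iL against 170 and 176 in TG2A_S2iL. The part of these genes in the Gata3 value was not tested. The knockout change with 2i less that in LIF medium against TG2A_ESC was called for 0 members in edgeR (0 also at an unadjusted p under 0.05), where 1.95% of genes were called. The values were 0.80 for Gata2 (SE 0.474), -1.19 for Gata3 (SE 0.922), -0.51 for Gata4 (SE 1.01) and 1.13 for Gata6 (SE 0.904, adjusted p = 0.578, and 0.000695 with no filter). Several of these comparisons share control libraries, and their values are set side by side only.

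**Figure D2:**
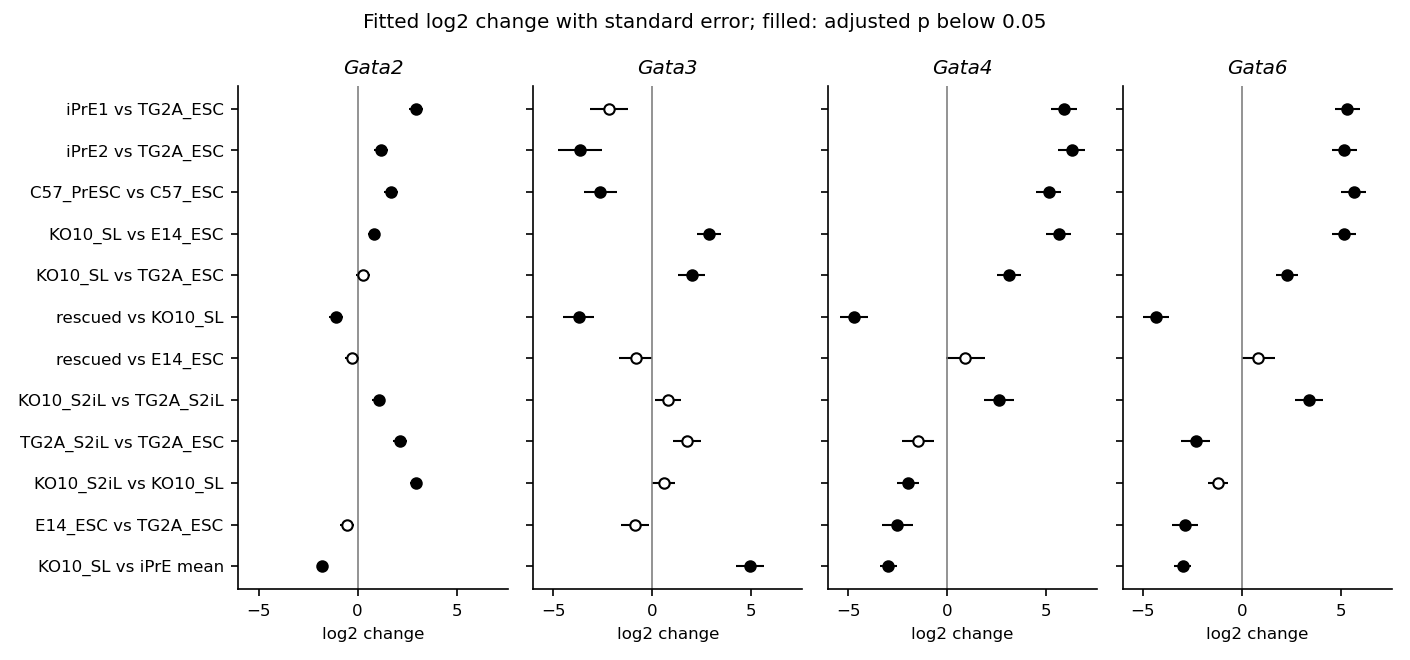
Log2 change of each GATA factor (horizontal axis) in 12 comparisons (vertical axis) from 1 edgeR fit, with bars for the standard error and filled points for an adjusted p under 0.05. Gata4 and Gata6 are at 6.28 and 5.18 for iPrE2 against TG2A_ESC and at -4.71 and -4.32 after rescue, while Gata3 lies below 0 in the PrE stem cells and at 2.87 in the knockout against E14_ESC.

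Seen as a family, the makeup changed along with the total. Over Gata1 to Gata6, each divided by its exon length, the summed level was 160 to 220 CPM per kb in the PrE libraries, 22.8 to 27.4 in KO10_SL and 15.2 and 17.3 in KO10_S2iL. It was 2.15 and 2.36 after rescue and 2.33 to 3.10 in E14_ESC. In PrE libraries Gata4 made up 35.7 to 55.3% and Gata6 42.9 to 61.1% of the sum. KO10_SL had a makeup of that kind, with 38.6 to 40.1% Gata4 and 46.4 to 48.3% Gata6. In E14_ESC the blood factor Gata1 made up 55.7 to 62.3%, and in TG2A_S2iL Gata2 made up 43.4 and 47.2%. KO10_S2iL was mixed, with 30.6 and 31.7% Gata2, 29.6 and 32.7% Gata6 and 15.0 and 15.3% Gata4. The C57_ESC libraries had different makeups, with 56.4% Gata4 and 35.7% Gata6 in replicate 1, and 11.6% and 8.73% in replicate 2. In TG2A_ESC, replicates 1 and 2 held 25.7 and 57.1% Gata6, 19.9 and 21.1% Gata4 and 31.2 and 9.91% Gata1. Gata4 and Gata6 thus held the largest shares in wild-type C57_ESC replicate 1 and TG2A_ESC replicate 2 as well.

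**Figure D3:**
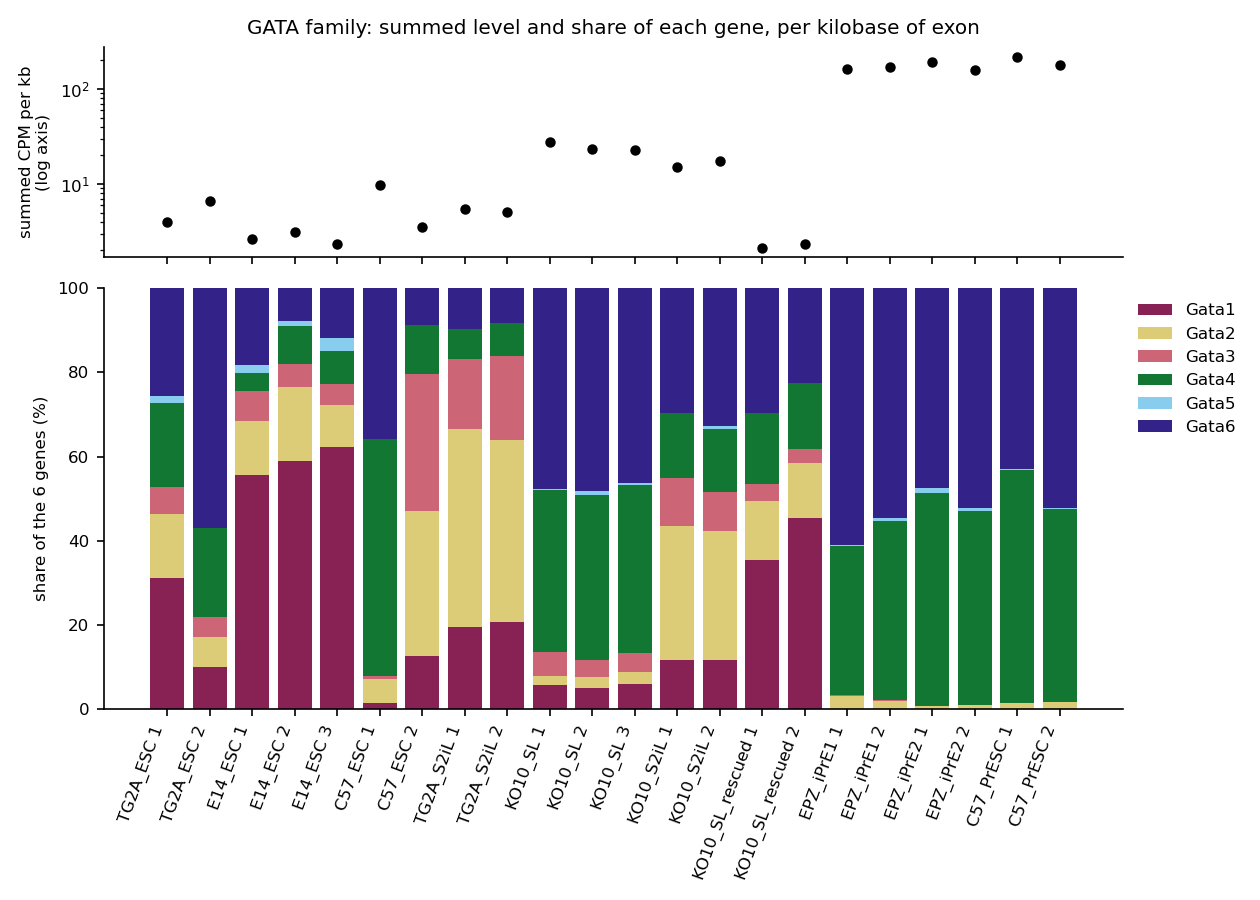
Upper panel: summed level of Gata1 to Gata6 in CPM per kilobase of exon (log axis) in each of the 22 libraries. Lower panel: share of each gene in that sum, in percent; Gata4 and Gata6 fill nearly the whole bar in PrE stem cells, Gata1 is the largest share in E14_ESC (55.7 to 62.3%) and Gata2 in TG2A_S2iL.

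Other genes of the family and its cofactors had their own patterns. Gata1, which drives red blood cells, had 0 counts in each of the 6 PrE libraries and 5 to 74 counts in every other library. Its fall was called in all 3 PrE comparisons, and a count of 0 allows up to 3 counts, or 0.174 to 0.234 CPM in these libraries. Gata5, an endoderm and heart factor, rose in all 3 PrE comparisons, by 4.47 (adjusted p = 0.00535), 5.70 (adjusted p = 0.000842) and 5.996 (adjusted p = 0.00261). It reached no more than 7.62 CPM. Trps1, an atypical GATA factor that represses transcription, fell in all 3, at -6.04 (adjusted p = 2.49e-07), -5.87 (adjusted p = 2.1e-07) and -4.98 (adjusted p = 7.83e-07). In the knockout against E14_ESC neither Gata1 (-0.25, adjusted p = 0.589) nor Gata5 (1.07, adjusted p = 0.388) was called. Gatad2b, a subunit of the NuRD complex with a GATA-type finger, fell by 0.91 (adjusted p = 1.53e-07) there and rose by 0.93 (adjusted p = 3.82e-07) after rescue. Its knockout value was smaller against TG2A_ESC, at -0.30 (adjusted p = 0.0147). With 2i, against TG2A_S2iL, it was -0.29 (adjusted p = 0.0298). Zglp1, a GATA-type zinc finger gene of germ cells, fell in the 3 PrE comparisons, at -2.59 (adjusted p = 0.00916), -5.16 (adjusted p = 0.000373) and -4.52 (adjusted p = 0.000467). Called changes of Gatad1 and Gatad2a were small, such as 0.30 for Gatad1 in EPZ_iPrE1 (adjusted p = 0.0332) and -0.39 for Gatad2a in the C57 pair (adjusted p = 0.00171). After rescue Gata5 had 0 counts in both libraries, against 5, 17 and 6 in KO10_SL, and its fall was called (adjusted p = 0.0379).

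Zfpm1, the FOG cofactor that binds GATA zinc fingers, rose by 1.88 (adjusted p = 0.000178), 2.30 (adjusted p = 2.42e-05) and 1.07 (adjusted p = 0.0117) in the PrE comparisons and by 1.35 (adjusted p = 0.000751) in the knockout against E14_ESC, and fell by 1.67 (adjusted p = 0.000555) after rescue. The partners of GATA1 and GATA2 in blood cells went down in PrE stem cells. Of Ldb1, Lmo2 and Tal1, the adaptor Ldb1 fell by 1.08 (adjusted p = 1.06e-06) in EPZ_iPrE1 and by 1.08 (adjusted p = 9.61e-07) in EPZ_iPrE2, and Tal1 stood at -7.82 (adjusted p = 0.000389) and -5.24 (adjusted p = 0.000705). Lmo2 stood at -2.78 (adjusted p = 0.0206), -6.96 (adjusted p = 0.00107) and -2.99 (adjusted p = 0.0092) in the 3 PrE comparisons. Over the 5 tested cofactors 1 rose and 3 fell in each, where 60.1%, 62.2% and 60.7% of all genes were called. In the knockout against E14_ESC 2 rose and 1 fell, where 48.6% of all genes were called. Lmo2 rose there by 2.23 (adjusted p = 0.00555) and was not called against TG2A_ESC (1.30, adjusted p = 0.145). The counts were not tested against these shares.

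Gata4 and Gata6 resembled each other more than any other pair of members. Over the 10 group means of log2 CPM the correlation was 0.99 between Gata4 and Gata6, 0.54 between Gata2 and Gata4, 0.56 between Gata2 and Gata6, and 0.15 between Gata2 and Gata3. Gata3 had -0.44 with Gata4 and -0.43 with Gata6. Among 10664 genes with a group mean of at least 10 CPM, the genes most like Gata6 were Dkk1, a secreted Wnt inhibitor (0.9946), Foxa2 (0.993) and Sox17 (0.9912). Those most like Gata4 were Dkk1 (0.9945), Clic5 (0.9929), an ion channel family member, and Gata6 itself (0.9904). For Gata2 they were Acox3 (0.9545), a peroxisomal oxidase, Osbpl7 (0.9287) and Spata6 (0.9276). For Gata3 they were Pycard (0.9498), an inflammasome adaptor, Gprc5a (0.9479) and Hyal2 (0.9461). These are correlations over 10 groups that share cell lines, media and, in each mean, libraries, and the contrast of PrE with ESC dominates those of Gata4 and Gata6. Over the 22 libraries the values for Gata6 were 0.98 with Dkk1, 0.97 with Foxa2 and 0.98 with Sox17, while Pycard fell from 0.9498 to 0.71 with Gata3.

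In 2 wild-type groups the replicates differed in Gata6 by a wide margin. In TG2A_ESC, replicate 2 was the higher library in Gata6 (12.3 against 3.28 CPM), Gata4 (5.14 against 2.86), Sox17 (4.403 against 1.56) and Pdgfra (6.50 against 2.45). In C57_ESC, replicate 1 was the higher library in Gata6 (11.2 against 1.01 CPM), Gata4 (19.97 against 1.51), Sox17 (4.56 against 0.353) and Pdgfra (19.7 against 8.08). In both groups 1 library thus held more of all 4 PrE genes than the other. This did not extend to every group. In E14_ESC replicate 1 was highest in Gata6 (1.56 CPM) but lowest in Gata4 (0.419) and Sox17 (0.180), and in KO10_S2iL replicate 2 was higher in Gata6 but lower in Sox17 (2.64 against 3.37 CPM). Gata3 went the other way in C57_ESC, with 0.212 CPM in replicate 1 and 3.74 in replicate 2.

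**Figure D4:**
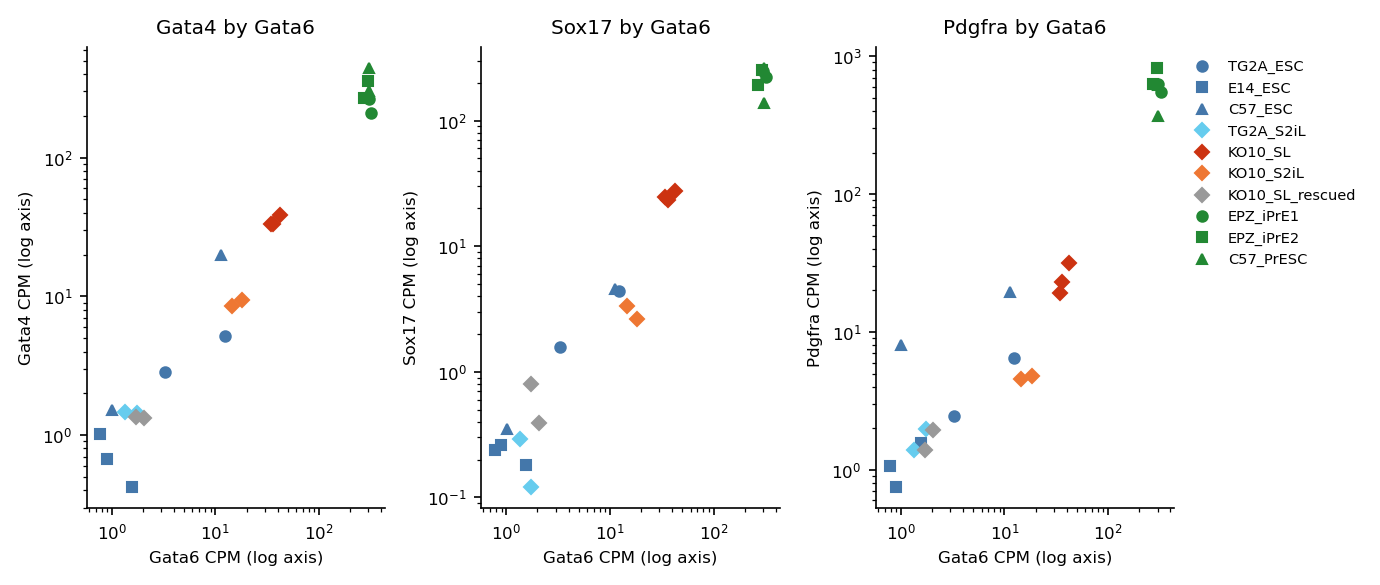
Level of Gata4, Sox17 and Pdgfra (vertical axes, CPM, log) against Gata6 (horizontal axis, CPM, log) in each of 22 libraries, coloured by kind of cell. PrE stem cells (green) sit at 270 to 321 CPM of Gata6, KO10_SL (red diamonds) at 34.2 to 42.4, and the other libraries at 18.3 or less, with the 2 C57_ESC and the 2 TG2A_ESC libraries apart from their replicates.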

How the data were processed

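RNA-seq of 22 mouse libraries was used, in the form of 1 table of estimated counts per gene symbol, as the authors deposited it. Per the submitters' processing notes the reads were handled with Trim Galore, STAR 2.7.6a and DESeq2 on mm10. Neither the counting tool nor its annotation or strand setting is given in the sources used here. The labels name polyA RNA, while the protocol in the labels names an rRNA depletion kit. Per library 5.71 to 7.26% of symbols held fractional values, none of them a member, and values were rounded to whole numbers. Genes passing filterByExpr were scaled by TMM and fitted over all libraries with edgeR 4.0.16 (R 4.3.3; quasi-likelihood test, 12 residual degrees of freedom), with 15 comparisons, Benjamini-Hochberg adjustment over 17547 genes, and a call at an adjusted p under 0.05. SE is the change divided by the square root of F. The scripts were tested on simulated data. Alternatives were DESeq2 1.42.0, RLE scaling, no filter, unrounded values, only the groups compared, a replicate block, leaving out each library, CPM from unscaled totals, and correlation over libraries.

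Levels are CPM on scaled library sizes, and CPM per kb uses GENCODE M21 exon lengths. Members, gene lists and tests were chosen with earlier results of these data known. Up to 4 called genes of a list, those with the largest change, were named, with called relatives and cofactors (not each in every comparison) and 7 landmarks (Ezh2, Nanog, Fgf4, Sox17, Pdgfra, Cdx2 and Foxa2). Hnf4a in the knockout, and relatives and cofactors that were not called, were named after their values were seen. Human cells, another knockout clone and CUT&Tag were not used here. Depth limits Gata3, Gata1 and Gata5 most, and counting intervals and floors cover counting error only.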

Additional observations from a re-analysis of the deposited data

Results flagged for a closer look

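The rise of Gata2 over TG2A_ESC differed between the induced PrE lines, by a test of the difference itself. The change was 2.95 in EPZ_iPrE1 and 1.18 in EPZ_iPrE2 on the log2 scale, a difference of -1.77 (SE 0.351, adjusted p = 0.00669, edgeR's quasi-likelihood test with Benjamini-Hochberg adjustment). The libraries read 18.5 and 12.3 CPM in EPZ_iPrE1 and 4.46 and 4.54 in EPZ_iPrE2, and both changes use the same TG2A_ESC libraries. The call ended without EPZ_iPrE1 replicate 1 (-1.44, adjusted p = 0.0758), without EPZ_iPrE2 replicate 1 or 2 (adjusted p = 0.0654 and 0.0634) and with only these 4 libraries fitted (-1.79, adjusted p = 0.084).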

How the results depend on the processing

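Of 36 called member changes, all 36 kept direction and call under RLE scaling, DESeq2, no filter and unrounded values, 35 under the replicate block and 33 with only the groups compared, where 2 were lost and 1 had no value. Without 1 library, 137 of these values kept the call, 37 lost it and 1 turned. Of the 24 not called, 6 became called with no filter, 5 with only the groups compared and 1 in DESeq2. With no filter, adjusted p of Gata4 and Gata6 was often far smaller at nearly the same change. Gata4 in EPZ_iPrE1 stood at 5.89 in both edgeR fits, with an adjusted p of 1.02e-06 and, with no filter, 1.27e-217. The cause was not tested, and calls gained with no filter are not added support for a change. Gata3 rests on 1 to 5 counts per library in PrE stem cells, and most groups hold 2 libraries.

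With only the groups compared, Gata2 was 1.68 in the C57 pair and -1.79 between the induced lines, neither called, so that 2 and 0 members were called, while TG2A_S2iL against TG2A_ESC had 4. Gata3 passed there at -2.19 in EPZ_iPrE1, 1.75 in TG2A_S2iL and 0.81 in KO10_S2iL against TG2A_S2iL, Gata4 at -1.46 in TG2A_S2iL and Gata6 at -1.26 in KO10_S2iL against KO10_SL. With no filter, 1 member was called for the induced less the C57 change (Gata4, 0.98), 4 for TG2A_S2iL (Gata3 1.76, Gata4 -1.45), 1 for the knockout change between media (Gata6, 1.14), and Gata3 passed in EPZ_iPrE1 (-2.20) and Gata6 in KO10_S2iL against KO10_SL (-1.18). In DESeq2 Gata3 passed in EPZ_iPrE1 (-2.29). With the replicate block, E14_ESC against TG2A_ESC had 1 member, Gata4 being -2.48 (adjusted p = 0.0501), and no other member call changed. Same-numbered KO10_SL and E14_ESC libraries had deviations correlated at 0.037, 0.004 and 0.019, so the numbers do not pair them.

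Without 1 library, EPZ_iPrE2 ranged from 1.05 to 1.36 for Gata2 and -3.74 to -3.50 for Gata3, and Gata3 in the C57 pair from -3.52 to 0.56. Between the induced lines Gata2 ranged from -2.05 to -1.44, with 0 to 1 members called. The induced less the C57 change ranged from -0.32 to 0.86 (Gata2), -3.49 to 0.62 (Gata3), -1.85 to 1.85 (Gata4) and -2.99 to 0.85 (Gata6), with 0 to 2 called. KO10_SL ranged from 0.54 to 1.20 (Gata2) against E14_ESC, and from 1.69 to 2.14 (Gata3) and 1.64 to 3.54 (Gata6) against TG2A_ESC, with 1 to 2 called. Rescue ranged for Gata2 from -1.13 to -1.05 against KO10_SL and -0.56 to 0.10 against E14_ESC. KO10_S2iL against TG2A_S2iL ranged from 0.94 to 1.17 (Gata2) and 2.52 to 2.68 (Gata4), with 1 to 2 called. TG2A_S2iL ranged from -2.98 to -1.09 (Gata6), with 1 to 2 called, and KO10_S2iL against KO10_SL from -2.06 to -1.89 (Gata4), with 1 to 2 called. The change between media ranged from -0.076 to 1.82 (Gata6). E14_ESC against TG2A_ESC ranged from -2.84 to -2.02 (Gata4) and -3.52 to -1.62 (Gata6), with 0 to 2 called.

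Counts over all genes moved by more than 1.5 times as follows. With only the groups compared, 10643 became 5383 (C57 pair), 686 became 28 (induced lines), 6167 became 3041 (induced less C57 change), 19 became 551 (rescued against E14_ESC), 5263 became 9606 (KO10_S2iL against TG2A_S2iL), 6482 became 10037 (KO10_S2iL against KO10_SL) and 343 became 1795 (change between media). With no filter, 686, 19 and 343 became 1143, 389 and 923. With the replicate block, 19 and 343 became 6 and 165, and in DESeq2 178 and 987. Without 1 library, the fits past that factor gave 379 to 407 (from 686), 1 to 9 (from 19), 2847 to 3156 (from 5263), 3847 to 4007 (from 6482) and 44 to 151 (from 343). For TG2A_S2iL against TG2A_ESC 4086 became 2076 to 2509, and for E14_ESC against TG2A_ESC 4269 became 1676 without TG2A_ESC replicate 2.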
